A study of Mus musculus with 9 samples.

Results

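Antioxidant enzymes, glutathione transferases and metallothioneins were followed in cultured mouse adipose cells given sodium alginate. The set was a list of 42 gene symbols, and a gene entered when its symbol stood in the name column of the expression table. Of the 42, 39 had a row, out of 41761 gene rows, and 3 (Sod2, Txnrd1 and Gstp1) had none under that name. The cells were primary stromal cells from the inguinal white fat of wild type C57 mice, taken through white adipocyte differentiation. Sodium alginate, the salt of a brown algal polysaccharide, was given throughout at 0, 50 or 100 µM, with 3 libraries per dose and 9 in all. At every dose, 0 µM included, the induction medium held 1 µg/ml insulin, 1 µM dexamethasone, 0.5 mM IBMX and 1 µM rosiglitazone, and from day 2 insulin and rosiglitazone were kept, per the treatment protocol; the design text lists no rosiglitazone. Rosiglitazone is itself an agonist of the adipogenic receptor PPAR gamma, so all groups shared that stimulus. The title of each 100 µM library gives 50 µM, while its treatment label and library name give 100 µM, which was used. By title the cells were at day 6, by protocol at day 7. Separate cultures or animals behind the libraries are not named in any label, so p-values measure only the spread between libraries, which may be technical.

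Superoxide, made by respiration and by oxidases, is turned into hydrogen peroxide by superoxide dismutases. Peroxide is then removed by catalase, by glutathione peroxidases and by peroxiredoxins, the last of these kept reduced by thioredoxins and their reductases. Glutathione transferases couple glutathione to reactive lipid aldehydes and xenobiotics, methionine sulfoxide reductases repair oxidised methionine, and metallothioneins are small cysteine-rich proteins that bind zinc and copper. Many of these genes are targets of NRF2 (gene Nfe2l2), a transcription factor that KEAP1 holds low until electrophiles or oxidants modify KEAP1. Adipocytes carry much mitochondrial respiration and lipid oxidation, and they also need NADPH both for fatty acid synthesis and for the reduction of glutathione and thioredoxin.

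Expression was given as FPKM (fragments per kilobase of gene, scaled to depth). Levels compared between genes in this unit depend on the gene length used for each row. Mgst2, with a length of 3738 bases, had 160 to 311 rebuilt reads, and Gsta4, with 957 bases, had 42 to 85. Whole reads rebuilt from these values numbered 14019672 to 17094467 per library, and the 39 members took 0.640% to 0.757% of them. The labels call the cells mature white adipocytes: the 12 adipocyte markers summed to 6397 to 6538 FPKM in the 0 µM libraries, 6873 to 7322 in the 50 µM libraries and 9246 to 9897 in the 100 µM libraries, with Lep under the filter on low values. One library stood apart before any test: 50 µM library 3 lay at -19.1 on the second principal component (11.9% of variance), against -4.62 to 11.4 for the others. Of the 39 members, 27 (69.2%) had their highest 50 µM value in that library, against 37.3% of all genes tested. In 100 µM library 3, 28 members had the lowest of the 100 µM values, against 33.9% of all genes tested.

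At 100 µM against 0 µM, members of the set moved both ways. The mitochondrial enzymes Prdx3, Glrx5 and Txn2, the cytosolic dismutase Sod1 and both methionine sulfoxide reductases were higher, while the secreted enzymes Sod3 and Gpx3, the endoplasmic reticulum peroxidases Gpx7 and Gpx8, Nqo1 and Mt1 were lower. In the limma fit across all genes, 25 of 39 members passed an adjusted p of 0.05, 15 higher and 10 lower. The same fit called 33.9% of all 12635 genes tested, 18.3% higher and 15.6% lower, so a call was common in this comparison. The median log2 fold change was 0.09 over the members and 0.01 over all genes tested, and the members ranged from -0.61 to 0.71. Ratios of mean FPKM at 100 µM to 0 µM ranged from 0.605 to 1.64. In 29 members the 100 µM and 0 µM libraries did not overlap, 16 higher and 13 lower. Over all genes tested 47.9% did not overlap, 25.0% higher and 22.9% lower. On the TPM scale the calls divided into 11 higher and 13 lower, likewise 11 and 13 with the per-library scaling factor removed, and 13 and 11 after quantile normalization. The per-library factor in the deposited values raised 100 µM libraries relative to the other doses. Without 50 µM library 3 the calls were 14 higher and 10 lower. The count fell to 15 without 0 µM library 2, 11 higher and 4 lower. With no filter on low values, Gpx1, Gpx7, Mt1, Nqo1, Prdx4 and Txnrd2 were not called (limma adjusted p 0.0559 to 0.160), and Gpx7 was not with the 2 doses alone (0.0768). The rows of 12 members overlap another row of the table, and whether counting used strand is not given in the sources used here, so reads of such pairs cannot be told apart. In these bulk samples, fewer cells of a type and less RNA per cell cannot be told apart.

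**Figure D1:**
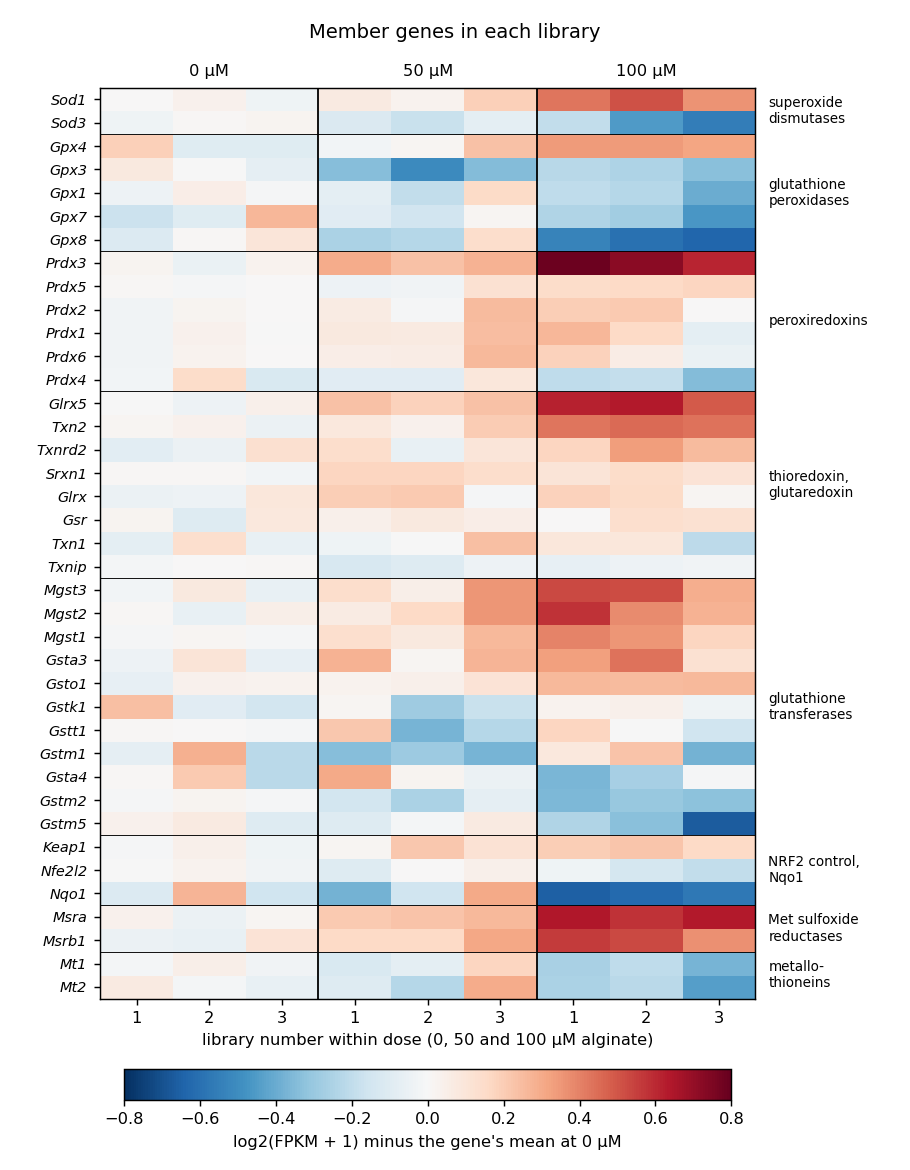
Each row is a gene and each column a library, 3 per dose; colour gives log2(FPKM + 1) minus the gene's mean at 0 µM. Prdx3, Glrx5 and Msra are red and Gpx8 and Nqo1 blue in all 3 libraries at 100 µM, while 50 µM library 3 is often warmer than its neighbours.

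Of the superoxide dismutases, the cytosolic enzyme rose and the extracellular one fell. Sod1, the copper and zinc enzyme of the cytosol, stood at 666, 679 and 647 FPKM in the 0 µM libraries, 699, 676 and 756 in the 50 µM libraries, then 893, 943 and 851 in the 100 µM libraries. All 100 µM libraries lay above the other 6, and the 0 and 50 µM libraries overlapped. The increase at 100 µM over 0 µM was a log2 fold change of 0.43 ± 0.0576 SE with an adjusted p of 0.000488 in limma. Sod1 (MGP_C57BL6NJ_G0023441) lies on chromosome 16 at 94102668 to 94108248, plus strand of the C57BL/6NJ assembly. Sod3, the secreted extracellular dismutase, stood at 41.6, 43.1 and 43.5 FPKM in the 0 µM libraries, 39.3, 37.7 and 40.4 in the 50 µM libraries, then 37.2, 30.9 and 28.7 in the 100 µM libraries. The groups did not overlap at all, with 0 µM highest and 100 µM lowest, and 100 µM library 1 was the highest of its dose. Sod3 fell by 0.40 ± 0.0813 on the log2 scale (SE, limma adjusted p = 0.00466). Both calls held in all 19 alternatives. Sod2, the manganese enzyme of mitochondria, had no row by name, but 2 unnamed rows carry its protein description and are not counted among the 39. The first of these averaged 165 ± 12.0, 170.1 ± 6.76 and 225 ± 20.5 FPKM at 0, 50 and 100 µM (SD, n = 3), with a log2 fold change of 0.44 ± 0.0739 SE with an adjusted p of 0.00167 in limma. The second, on an unplaced scaffold, averaged 75.5 ± 1.74, 70.9 ± 0.891 and 96.6 ± 2.14 FPKM at 0, 50 and 100 µM (SD, n = 3), with a log2 fold change of 0.35 ± 0.0363 SE with an adjusted p of 0.00012 in limma. Both were higher at 100 µM than at 0 µM, without overlap.

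The Sod1 promoter is shown because it holds the short core of the antioxidant response element, the site NRF2 binds, and because Gstm5, which fell, has a match of the same letters. The stretch runs from -80 to -21 relative to the start, on chr16:90220682-90220741, plus strand (RefSeq, GRCm38.p6). Capitals mark TGACNNNGC, here on the opposite strand, where it reads TGACCACGC.
Sod1: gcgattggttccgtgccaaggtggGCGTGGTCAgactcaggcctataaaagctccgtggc

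Of the 5 glutathione peroxidases, 1 rose and 4 fell. Gpx4, which reduces lipid hydroperoxides within membranes, stood at 132, 109 and 109 FPKM in the 0 µM libraries, 115, 117 and 137 in the 50 µM libraries, then 147, 147 and 145 in the 100 µM libraries. Its 3 libraries at 100 µM were the highest of the 9 and within 3 FPKM of each other, and 0 µM library 1 stood above the other 0 µM libraries. The difference was a log2 fold change of 0.33 ± 0.0875 SE with an adjusted p of 0.0168 in limma. The call was lost without 0 µM library 2 or 3 (limma adjusted p = 0.0617 and 0.0623) and after quantile normalization (0.0762). Gpx3, the peroxidase of plasma, had 264, 249 and 238 FPKM in the 0 µM libraries, 197, 176 and 196 in the 50 µM libraries, then 214, 211 and 198 in the 100 µM libraries. The 0 µM libraries were highest, the 50 µM libraries lowest, and the 100 µM libraries lay between with no overlap. It fell at 100 µM by 0.27 on the log2 scale (SE 0.0600, limma adjusted p = 0.00775) and in all 19 alternatives, with -0.46 after quantile normalization. Gpx3 (MGP_C57BL6NJ_G0018713) lies on chromosome 11 at 56056015 to 56063939, plus strand of C57BL/6NJ.

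Gpx1, the abundant cytosolic peroxidase, stood at 44.2, 47.3 and 45.3 FPKM in the 0 µM libraries, 43.1, 39.7 and 50.7 in the 50 µM libraries, then 39.5, 38.7 and 34.4 in the 100 µM libraries. Values were lowest at 100 µM, and the 50 µM libraries spanned the 0 µM range. Gpx1 passed with a log2 fold change of -0.28 ± 0.0864 SE with an adjusted p of 0.0353 in limma, but the call was lost without 0 µM library 1, 2 or 3 or 100 µM library 2 or 3 (0.0602 to 0.113). Gpx8 and Gpx7 are peroxidases of the endoplasmic reticulum, where they take part in oxidative protein folding. Gpx8 stood at 62.8, 68.2 and 72.7 FPKM in the 0 µM libraries, 56.8, 57.7 and 74.7 in the 50 µM libraries, then 46.6, 44.5 and 43.4 in the 100 µM libraries. All 100 µM libraries were below the other 6, and 50 µM library 3 was the highest of the 9. Its log2 fold change of -0.59 ± 0.0997 SE with an adjusted p of 0.00184 in limma passed in every alternative. Its row overlaps that of Cdc20b on the opposite strand. Gpx7 stood at 12.0, 12.7 and 16.6 FPKM in the 0 µM libraries, 12.8, 12.2 and 13.8 in the 50 µM libraries, then 11.4, 11.1 and 9.64 in the 100 µM libraries. The doses did not overlap between 0 and 100 µM, and 0 µM library 3 was the highest of the 9. Gpx7 passed with a log2 fold change of -0.33 ± 0.111 SE with an adjusted p of 0.0474 in limma, but the call was lost without any 1 of the libraries other than 0 µM library 1 (0.0549 to 0.144), and the value was -0.20 without 0 µM library 3.

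Among the 6 peroxiredoxins 2 rose and 1 fell, and Prdx3 had the largest increase of the 39 members as reported and in 18 of 19 alternatives, Msra having it after quantile normalization. Prdx3, the peroxiredoxin of the mitochondrial matrix, stood at 204, 194 and 205 FPKM in the 0 µM libraries, 248, 237 and 244 in the 50 µM libraries, then 347, 332 and 308 in the 100 µM libraries. The 3 doses were fully separated and in order. The increase was a log2 fold change of 0.71 ± 0.0510 SE with an adjusted p of 2.2e-05 in limma. Prdx3 (MGP_C57BL6NJ_G0025712) lies on chromosome 19 at 62930765 to 62941195, minus strand of C57BL/6NJ. Prdx5, found in mitochondria, peroxisomes and cytosol, stood at 73.0, 72.3 and 72.8 FPKM in the 0 µM libraries, 70.8, 71.4 and 79.0 in the 50 µM libraries, then 80.7, 81.2 and 82.0 in the 100 µM libraries. Its 100 µM libraries were the highest 3, by a small margin, a log2 fold change of 0.16 ± 0.0459 SE with an adjusted p of 0.0249 in limma. The call was lost without 0 µM library 1, 2 or 3 or 100 µM library 2 or 3 (0.0587 to 0.0679), on the TPM scale (0.152), with the factor removed (0.165) and after quantile normalization (0.590). Prdx5 also overlaps Trmt112 on the opposite strand.

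Prdx4, the peroxiredoxin of the endoplasmic reticulum, stood at 32.9, 37.1 and 30.6 FPKM in the 0 µM libraries, 31.4, 31.3 and 35.7 in the 50 µM libraries, then 28.8, 29.2 and 26.1 in the 100 µM libraries. All 3 libraries at 100 µM were the lowest, and 0 µM library 2 was the highest of the 9. Prdx4 passed with a log2 fold change of -0.25 ± 0.0802 SE with an adjusted p of 0.0406 in limma, but the call was lost without 0 µM library 1 or 2, 50 µM library 1 or 2, or any 1 of the 100 µM libraries (0.0510 to 0.129). The mainly cytosolic Prdx1, Prdx2 and Prdx6 were not called: across the 9 libraries Prdx1 ranged from 165 to 209, Prdx2 from 47.1 to 57.5 and Prdx6 from 77.7 to 96.8 FPKM, and their adjusted p-values in limma were 0.328, 0.201 and 0.53. Prdx1 had its highest value in 100 µM library 1 and its lowest in 100 µM library 3, and passed (0.0384) without the latter.

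Of 8 thioredoxin and glutaredoxin genes with a row, 4 rose and none fell; Txnip, the inhibitor of thioredoxin, was lower on the TPM scale (limma adjusted p = 0.0355), after quantile normalization (0.00865) and with the factor removed (0.0396), though not as reported. Glrx5, the mitochondrial glutaredoxin of iron-sulfur cluster assembly, stood at 136, 133 and 141 FPKM in the 0 µM libraries, 160.5, 155 and 161 in the 50 µM libraries, then 210.1, 212 and 193 in the 100 µM libraries. Its 3 doses were fully separated and ordered. The change was a log2 fold change of 0.58 ± 0.0474 SE with an adjusted p of 3.72e-05 in limma. Txn2, the mitochondrial thioredoxin that reduces Prdx3, stood at 37.5, 37.9 and 35.8 FPKM in the 0 µM libraries, 39.4, 37.9 and 42.7 in the 50 µM libraries, then 50.3, 51.0 and 50.3 in the 100 µM libraries. At 100 µM the libraries lay within 1 FPKM of each other and above the other 6, a log2 fold change of 0.44 ± 0.0487 SE with an adjusted p of 0.00018 in limma. Both calls held in all 19 alternatives.

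Txnrd2, the mitochondrial reductase of Txn2, was expressed far lower, at 3.37, 3.49 and 4.06 FPKM in the 0 µM libraries, 4.12, 3.45 and 3.96 in the 50 µM libraries, then 4.22, 4.83 and 4.52 in the 100 µM libraries. Its highest 3 values were those at 100 µM, and the 0 and 50 µM libraries overlapped. Txnrd2 passed with a log2 fold change of 0.25 ± 0.0818 SE with an adjusted p of 0.0396 in limma, but the call was lost without 0 µM library 1 or 2, 50 µM library 3, or 100 µM library 2 or 3 (0.0503 to 0.126), on the TPM scale (0.105) and with the factor removed (0.0931), and the row is among those that overlap another. Srxn1, sulfiredoxin, which restores overoxidised peroxiredoxins, stood at 34.9, 34.9 and 34.0 FPKM in the 0 µM libraries, 39.0, 39.1 and 38.2 in the 50 µM libraries, then 37.3, 38.4 and 37.4 in the 100 µM libraries. The 0 µM libraries were the lowest 3, and the 50 and 100 µM libraries overlapped. Srxn1 passed with a log2 fold change of 0.12 ± 0.0345 SE with an adjusted p of 0.0246 in limma, but the call was lost without any 1 of the 0 µM libraries or 100 µM library 2 (0.0529 to 0.0872), and under each of the 3 other scalings (0.267 to 0.430) and with voom, the limma method for counts, run on rebuilt reads (0.0626). The remaining members were not called: cytosolic thioredoxin Txn1 ranged from 139 to 190.1 FPKM over the 9 libraries, Txnip from 81.2 to 89.4, glutathione reductase Gsr from 22.7 to 27.0 and cytosolic glutaredoxin Glrx from 26.9 to 32.3. Their adjusted p-values in limma were 0.955, 0.37, 0.278 and 0.251. A row described as Txnrd1, the cytosolic reductase, not counted among the members, averaged 50.8 ± 0.441, 52.1 ± 2.44 and 48.0 ± 2.25 FPKM at 0, 50 and 100 µM (SD, n = 3) and was not called (limma adjusted p = 0.233).

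Of the 11 glutathione transferases with a row, 4 were higher (the 3 microsomal enzymes and Gsto1), 2 of the mu class were lower (Gstm2 and Gstm5) and 5 were not called, the mu-class gene Gstm1 among them. No test compared the classes. Mgst1, a membrane transferase and peroxidase of the endoplasmic reticulum and outer mitochondrial membrane, stood at 267, 272 and 266 FPKM in the 0 µM libraries, 295, 284 and 321 in the 50 µM libraries, then 354, 343 and 303 in the 100 µM libraries. The 0 µM libraries were the lowest 3, and 100 µM library 3 fell within the 50 µM range. The increase was a log2 fold change of 0.31 ± 0.0663 SE with an adjusted p of 0.00643 in limma. Mgst3, a related membrane enzyme, stood at 121, 130.4 and 119 FPKM in the 0 µM libraries, 136, 127 and 158 in the 50 µM libraries, then 178, 177 and 151 in the 100 µM libraries. All 100 µM libraries were above the 0 µM libraries, with 100 µM library 3 below 50 µM library 3. Its change was a log2 fold change of 0.45 ± 0.0890 SE with an adjusted p of 0.0043 in limma. Mgst2, the lowest of the 39 members by mean level, stood at 3.04, 2.86 and 3.15 FPKM in the 0 µM libraries, 3.21, 3.48 and 4.14 in the 50 µM libraries, then 4.99, 4.21 and 3.86 in the 100 µM libraries. The doses 0 and 100 µM did not overlap, and the spread among 100 µM libraries was wide for its level. The change was a log2 fold change of 0.41 ± 0.0972 SE with an adjusted p of 0.0103 in limma. Calls of Mgst1 and Mgst3 held in all 19 alternatives, Mgst1 at 0.14 after quantile normalization, and that of Mgst2 in each one that tested it, the filter at 5 FPKM having removed it.

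Gsto1, an omega-class transferase with thioltransferase activity, stood at 67.8, 72.5 and 72.4 FPKM in the 0 µM libraries, 72.4, 72.9 and 76.4 in the 50 µM libraries, then 84.8, 84.6 and 85.1 in the 100 µM libraries. At 100 µM they differed by less than 1 FPKM and lay above all others. Gsto1, with a log2 fold change of 0.26 ± 0.0408 SE with an adjusted p of 0.00129 in limma, passed in every alternative, with 0.13 after quantile normalization. Gstm2 and Gstm5, of the mu class, sit in 1 cluster on chromosome 3. Gstm2 stood at 64.6, 66.3 and 64.6 FPKM in the 0 µM libraries, 58.7, 54.7 and 62.0 in the 50 µM libraries, then 50.6, 52.6 and 51.6 in the 100 µM libraries, fully separated by dose and falling. The change was a log2 fold change of -0.33 ± 0.0483 SE with an adjusted p of 0.000794 in limma. Gstm5 stood at 14.6, 15.1 and 13.2 FPKM in the 0 µM libraries, 13.2, 14.1 and 15.0 in the 50 µM libraries, then 12.0, 11.1 and 8.62 in the 100 µM libraries. The 100 µM libraries were the lowest 3, with 100 µM library 3 well below the rest. Gstm5 passed with a log2 fold change of -0.41 ± 0.105 SE with an adjusted p of 0.0142 in limma, but the call was lost only when 0 µM library 2 was left out (0.0516). Gstm1, 25832 bases from Gstm2 in the same cluster, ranged from 11.4 to 18.7 FPKM and was not called (0.934). Its 100 µM libraries alone spanned 11.4 to 18.0 FPKM. Sequence is close between mu-class genes, so the division of reads among these rows is uncertain.

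The alpha-class genes Gsta3 and Gsta4 and theta-class Gstt1 were among the 5 members with the lowest means, and Gsta4 rested on as few as 42 rebuilt reads in 1 library. Gsta3 stood at 3.14, 3.57 and 3.06 FPKM in the 0 µM libraries, 4.16, 3.30 and 4.14 in the 50 µM libraries, then 4.34, 4.76 and 3.63 in the 100 µM libraries. The 100 µM libraries lay above the 0 µM libraries without overlap, yet the log2 fold change of 0.30 ± 0.103 SE with an adjusted p of 0.052 in limma missed the threshold; it passed without 50 µM library 2 (0.0369), without 100 µM library 3 (0.0238) after quantile normalization (0.0365) and with voom (0.0237). Gsta4, which acts on the lipid aldehyde 4-hydroxynonenal, stood at 4.11, 4.88 and 3.37 FPKM in the 0 µM libraries, 5.28, 4.16 and 3.92 in the 50 µM libraries, then 2.94, 3.23 and 4.05 in the 100 µM libraries. Gstt1 stood at 4.33, 4.33 and 4.27 FPKM in the 0 µM libraries, 5.17, 3.10 and 3.54 in the 50 µM libraries, then 4.98, 4.29 and 3.76 in the 100 µM libraries. In both, the 0 and 100 µM libraries overlapped, and the adjusted p-values in limma were 0.269 and 0.99. Gstk1, the mitochondrial kappa-class enzyme, ranged from 4.24 to 6.53 FPKM (0.95). A row described as Gstp1, which has near-identical copies, gave 33.8, 39.0 and 79.4 FPKM in the 0 µM libraries alone and was not called (limma adjusted p = 0.458).

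Promoter stretches of Mgst1, which rose, and Gstm5, which fell, are shown with the same core in capitals. They are chr6:138140447-138140506, from -80 to -21 of the Mgst1 start, and chr3:107895784-107895843, from -70 to -11 of the Gstm5 start, both plus strand (RefSeq, GRCm38.p6). In Mgst1 the match TGACCGTGC is on the opposite strand, and in Gstm5 the match TGACCACGC, the letters of the Sod1 match, is on the strand printed.
Mgst1: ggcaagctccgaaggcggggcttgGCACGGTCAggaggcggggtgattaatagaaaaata
Gstm5: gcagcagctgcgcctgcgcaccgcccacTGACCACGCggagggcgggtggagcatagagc
Over the 34 members with a promoter in the table (windows of 300 bases, both strands searched), TGACNNNGC was found in 8: Gsta3, Gstm5, Mgst1, Mt2, Nfe2l2, Prdx1, Sod1 and Srxn1. By windows, 20.0% of the members' 40 held it, against 12.4% of all 32851 in the table. Of the 8 genes, 3 were called higher, 1 lower and 4 were not called as reported. A longer form of the core, with an A added at the 3′ end, was found in Gsta3 alone of these members, against 3.04% of all windows. A window of Txnrd1, a listed gene with no row by name, held both forms. A match of letters is not a bound site, and where there was none, as in Nqo1 and Prdx3, only the letters of this window are described.

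Of the 3 members of the NRF2 branch, the repressor Keap1 was called higher, the target Nqo1 lower, and Nfe2l2 was not called. Nfe2l2, encoding NRF2, stood at 36.0, 36.8 and 35.4 FPKM in the 0 µM libraries, 33.5, 36.1 and 37.1 in the 50 µM libraries, then 35.1, 32.7 and 31.3 in the 100 µM libraries. Values at 100 µM lay below those at 0 µM without overlap, and the log2 fold change of -0.12 ± 0.0540 SE with an adjusted p of 0.111 in limma missed the threshold as reported but passed on the TPM scale (0.0131), with the factor removed (0.0250), after quantile normalization (0.0289) and without 100 µM library 1 (0.0447). Keap1, its cytosolic repressor, stood at 10.1, 10.5 and 9.95 FPKM in the 0 µM libraries, 10.3, 12.0 and 11.1 in the 50 µM libraries, then 11.8, 12.1 and 11.5 in the 100 µM libraries. Values at 100 µM were above those at 0 µM and overlapped those at 50 µM. Keap1 passed with a log2 fold change of 0.19 ± 0.0561 SE with an adjusted p of 0.0265 in limma, but the call was lost without 0 µM library 1 or 3 or 100 µM library 1 or 2 (0.0602 to 0.0838), on the TPM scale (0.145) and with the factor removed (0.113). Nqo1, a quinone reductase and widely used NRF2 target gene, stood at 7.64, 10.3 and 7.36 FPKM in the 0 µM libraries, 6.20, 7.37 and 10.5 in the 50 µM libraries, then 4.94, 5.07 and 5.29 in the 100 µM libraries. Its 100 µM libraries were tightly grouped and the lowest 3, whereas 0 µM library 2 and 50 µM library 3 were high within their doses. With a log2 fold change of -0.61 ± 0.166 SE with an adjusted p of 0.0191 in limma, Nqo1 had the largest decrease of the set as reported and in 15 of 19 alternatives. Gpx8 had it in the other 4: at a pseudocount of 5 FPKM (Nqo1 at -0.40), after quantile normalization, without 0 µM library 2 (Nqo1 at -0.48) and without 100 µM library 1. The call of Nqo1 was lost without 0 µM library 2 or 100 µM library 1 or 2 (0.0522 to 0.0662). Nqo1 (MGP_C57BL6NJ_G0034593) lies on chromosome 8 at 113828429 to 113843415, minus strand of C57BL/6NJ.

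Both methionine sulfoxide reductases rose. Msra, which reduces the S form of methionine sulfoxide, stood at 17.5, 16.5 and 17.3 FPKM in the 0 µM libraries, 20.0, 20.2 and 20.6 in the 50 µM libraries, then 27.2, 26.1 and 27.1 in the 100 µM libraries. The doses were fully separated and ordered, with little spread within each. The increase was a log2 fold change of 0.62 ± 0.0404 SE with an adjusted p of 1.63e-05 in limma. Msra (MGP_C57BL6NJ_G0021876) lies on chromosome 14 at 61425481 to 61781060, minus strand of C57BL/6NJ. Msrb1, a selenoprotein that reduces the R form, stood at 46.4, 46.0 and 51.7 FPKM in the 0 µM libraries, 53.8, 53.7 and 59.6 in the 50 µM libraries, then 71.2, 69.6 and 62.1 in the 100 µM libraries. Its doses were separated too, with 100 µM library 3 nearest to the 50 µM range. The change was a log2 fold change of 0.48 ± 0.0695 SE with an adjusted p of 0.000724 in limma. Both calls held in all 19 alternatives.

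Mt1 and Mt2 had the highest levels of the set. Mt1 stood at 1337, 1395 and 1328 FPKM in the 0 µM libraries, 1242, 1283 and 1525 in the 50 µM libraries, then 1132, 1177 and 1043 in the 100 µM libraries. The 100 µM libraries were the lowest 3, and 50 µM library 3 was the highest of the 9. Mt1 passed with a log2 fold change of -0.28 ± 0.0811 SE with an adjusted p of 0.0267 in limma, but the call was lost without any 1 of the 0 µM libraries or 100 µM library 1 or 3 (0.0516 to 0.0862) and after quantile normalization (0.111). Mt2, its neighbour 5577 bases away on chromosome 8 of C57BL/6NJ, stood at 1278, 1205 and 1170.0 FPKM in the 0 µM libraries, 1131, 1038 and 1492 in the 50 µM libraries, then 1019, 1047 and 898 in the 100 µM libraries. Again 50 µM library 3 was the highest of the 9, and the 100 µM libraries lay below the 0 µM libraries, while 100 µM library 2 stood above 50 µM library 2. The log2 fold change of -0.30 ± 0.123 SE with an adjusted p of 0.0877 in limma missed the threshold in the fit that takes its variance from all 9 libraries, and passed without 50 µM library 3 (0.0114), with the 0 and 100 µM libraries alone (0.0169), on the TPM scale (0.0190), with the factor removed (0.0414) and with voom (0.0124).

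The metallothionein promoters are shown for the cores of the metal response element, the site of the zinc-sensing factor MTF1, which both hold in number. The stretch of Mt1 is chr8:94178969-94179118, from -120 to 30 of the start, and that of Mt2 is chr8:94172368-94172637, from -250 to 20, both plus strand (RefSeq, GRCm38.p6). Capitals mark TGCACNC or TGCGCNC, on either strand.
Mt1: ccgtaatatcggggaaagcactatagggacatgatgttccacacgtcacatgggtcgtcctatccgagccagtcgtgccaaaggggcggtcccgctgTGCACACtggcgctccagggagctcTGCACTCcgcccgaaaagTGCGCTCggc
Mt2: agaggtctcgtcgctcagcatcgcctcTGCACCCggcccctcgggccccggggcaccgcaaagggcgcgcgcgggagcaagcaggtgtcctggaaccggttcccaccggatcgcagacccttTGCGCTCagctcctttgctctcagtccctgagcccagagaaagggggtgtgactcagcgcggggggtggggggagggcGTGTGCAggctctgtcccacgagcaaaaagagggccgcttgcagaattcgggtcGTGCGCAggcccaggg
Mt1 held 3 cores and Mt2 held 4. Those at 3 to 9 and 21 to 27 in Mt1 and at 5 to 11 in Mt2 lie after the RefSeq start that set the window. The start used in these cells was not examined, and cores outside the window were not counted. Cores were found in 12 of the 34 members with a promoter, in 35% of their windows. At least 1 core was found in 25.7% of all windows in the table and at least 3 in 1.97%. Mtf1 itself averaged 3.94 ± 0.0207 FPKM at 0 µM and 4.25 ± 0.140 FPKM at 100 µM (SD, n = 3) and was not called (limma adjusted p = 0.220), and neither was the zinc exporter Slc30a1, another MTF1 target (0.817).

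**Figure D2:**
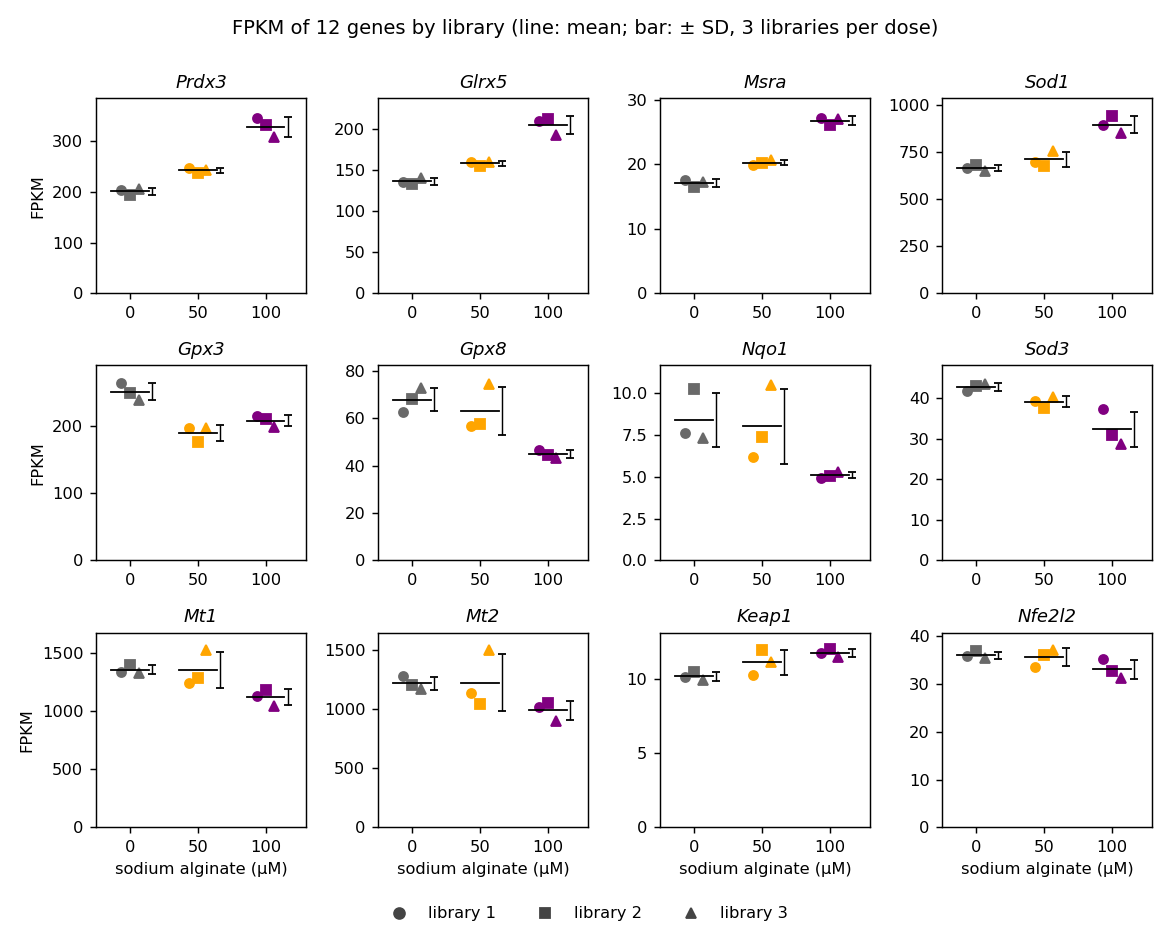
FPKM of 12 members in each library, on axes that start at 0, against the alginate dose in µM; marker shape gives the library number, lines the means and bars ± SD of 3 libraries. Prdx3, Glrx5 and Msra rise stepwise without overlap, Gpx3 is lowest at 50 µM, and 50 µM library 3 is the highest for Gpx8, Nqo1, Mt1 and Mt2.

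Only 2 members passed at 50 µM against 0 µM: Msra was higher and Gpx3 lower. The fit called 0.791% of all genes tested in this comparison, 0.356% higher and 0.435% lower. For Msra, the values given above were a log2 fold change of 0.23 ± 0.0404 SE with an adjusted p of 0.0405 in limma, and for Gpx3 a log2 fold change of -0.40 ± 0.0600 SE with an adjusted p of 0.0262 in limma. The call of Msra was lost without any 1 of the 9 libraries (0.0513 to 0.132), where its log2 fold change stayed at 0.21 to 0.25. That of Gpx3 was lost without any 1 of the 0 or 50 µM libraries or 100 µM library 2 (0.0511 to 0.107), at log2 fold changes of -0.43 to -0.35. Both were lost with low genes kept in and with the 2 doses alone (0.0594 to 0.0880), and Msra also on the TPM scale (0.0769), after quantile normalization (0.0529) and with voom on rebuilt reads (0.0653). The number of genes called in all moved too, from 100 as reported to 0 without 0 µM library 1 or 2 or 50 µM library 2. Without 50 µM library 3, none of the 39 was called by limma and 9 had an unadjusted p under 0.05, the same number as with it, while 13 genes were called in all. The next smallest adjusted p-values were those of Prdx3 (log2 fold change 0.27, adjusted p = 0.0534), Srxn1 (0.16, adjusted p = 0.0725) and Glrx5 (0.22, adjusted p = 0.0745). Prdx3 passed with the filter at 5 FPKM, the factor removed, voom, or without 100 µM library 1 or 3 (0.00487 to 0.0491), and Glrx5 with voom (0.0294). In 14 members the libraries did not overlap, 9 higher and 5 lower at 50 µM, against 20.7% of all genes tested (12.1% higher and 8.58% lower).

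At 100 µM against 50 µM, 13 members passed, 7 higher (Prdx3, Msra, Glrx5, Txn2, Sod1, Gsto1 and Msrb1) and 6 lower (Nqo1, Gpx8, Gstm5, Sod3, Mt1 and Gstm2). This comparison shares the 100 µM libraries with the one against 0 µM. The fit called 25.1% of all genes tested, 13.2% higher and 12.0% lower. In 20 members the libraries did not overlap, 11 higher and 9 lower, against 40.4% of all genes tested (20.9% higher and 19.5% lower). Log2 fold changes ran from -0.54 in Nqo1 to 0.43 in Prdx3. Between them, the higher genes had 0.39 for Msra, 0.37 for Glrx5, 0.33 for Sod1, 0.33 for Txn2, 0.27 for Msrb1 and 0.20 for Gsto1. The lower genes had -0.47 for Gpx8, -0.40 for Gstm5, -0.28 for Sod3, -0.27 for Mt1 and -0.17 for Gstm2. The calls of Glrx5, Gpx8, Msra, Prdx3, Sod1 and Txn2 held in all 19 alternatives, Glrx5 at 0.23 after quantile normalization. Gsto1 was lost only after quantile normalization (0.123) and with the factor removed (0.0579). Gstm5 was lost without 50 µM library 2 or 3 (0.0605 and 0.0744), Msrb1 without 50 µM library 1 or 2 or 100 µM library 1 or 2 (0.0594 to 0.0661) and with the factor removed (0.0604), and Gstm2 without 50 µM library 1 or 3 or any 1 of the 100 µM libraries (0.0538 to 0.0755). Sod3 was lost without any 1 of the libraries except 0 µM library 1 and 100 µM library 1 (0.0503 to 0.108), Nqo1 without any except 0 µM library 2 and 50 µM library 1 (0.0509 to 0.101, with a log2 fold change of -0.35 without 50 µM library 3), and Mt1 without any except 50 µM library 1 (0.0533 to 0.119, with -0.18 without 50 µM library 3). With no filter on low values Gstm5, Mt1, Nqo1 and Sod3 were lost (0.0624 to 0.205), with the 2 doses alone Gstm2, Mt1, Nqo1 and Sod3 (0.0513 to 0.0825), and at a pseudocount of 5 FPKM Nqo1 (0.0533). The split was 7 higher and 10 lower on the TPM scale, 5 and 10 with the factor removed and 6 and 8 after quantile normalization. Without 50 µM library 3 it was 10 higher and 1 lower.

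**Figure D3:**
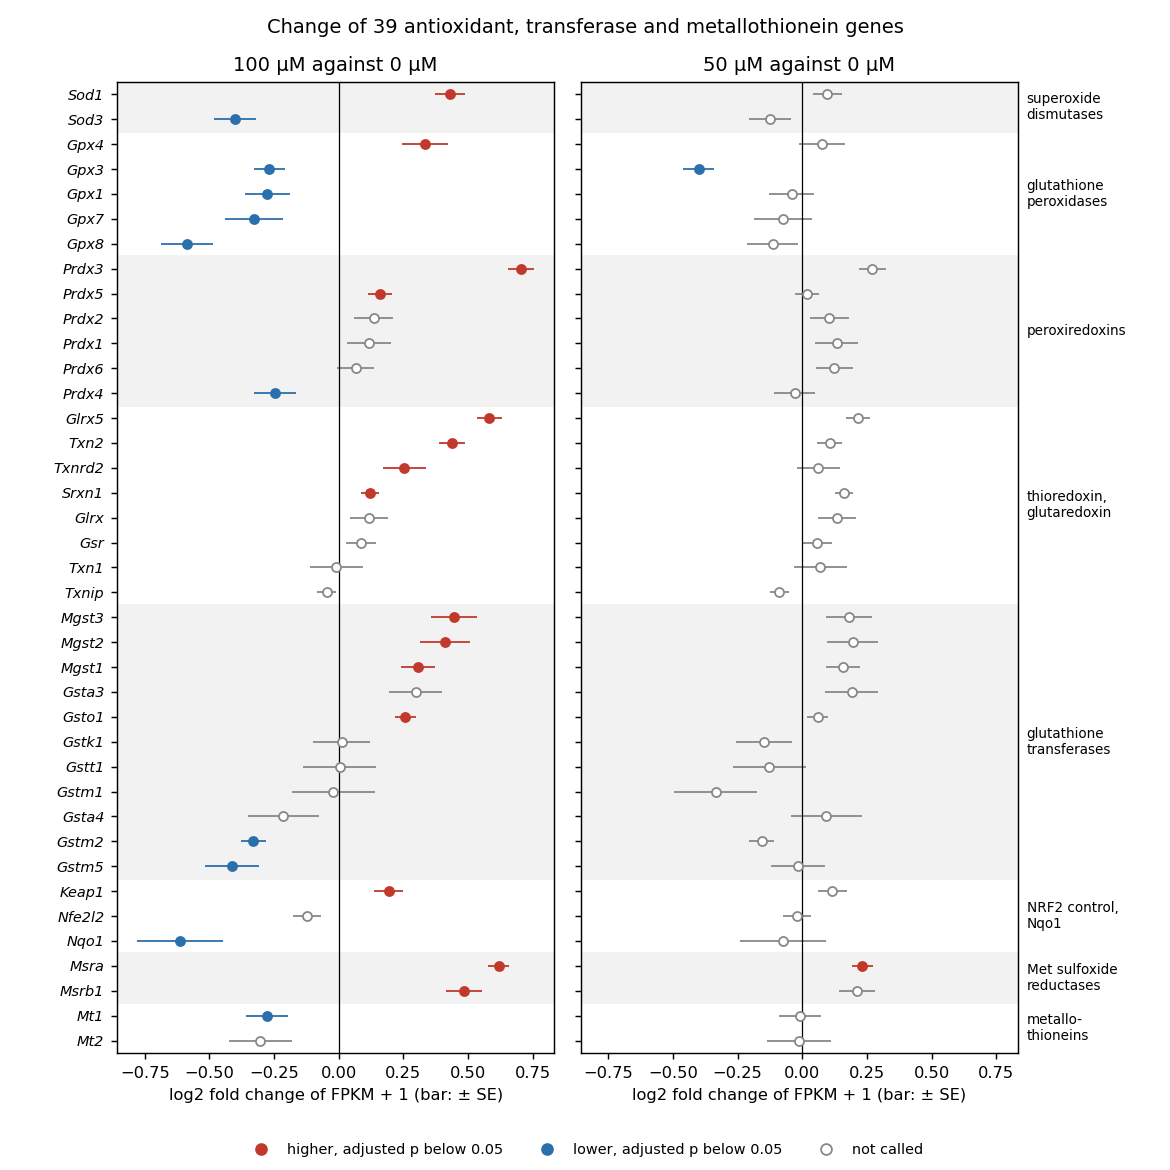
Points give the log2 fold change of FPKM + 1 from the limma fit and bars ± SE, for 100 µM (left) and 50 µM (right) against the same 0 µM libraries; filled points passed an adjusted p of 0.05. On the left 25 of 39 members are filled and on the right 2, Msra and Gpx3.

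The 50 µM mean lay between the means of the other doses in 27 of 39 members (69.2%), against 53.9% of all genes tested. Among genes called at 100 µM against 0 µM it did so in 23 of 25 members, against 82.1% of all such genes. Msra alone was called in both steps, 50 µM against 0 µM and 100 µM against 50 µM. The called members outside this order were Gpx3, lowest at 50 µM, and Srxn1, highest at 50 µM. The difference of Gpx3 at 100 µM from 50 µM, a log2 fold change of 0.13 ± 0.0600 SE with an adjusted p of 0.144 in limma, and the difference of Srxn1 between these doses, a log2 fold change of -0.04 ± 0.0345 SE with an adjusted p of 0.455 in limma, were not called.

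Grouped by their usual location, 4 of 5 mitochondrial members (Prdx3, Txn2, Glrx5 and Txnrd2) were higher at 100 µM than at 0 µM and none lower, Gstk1 being uncalled; on the TPM scale and with the factor removed Txnrd2 was not called either. The median log2 fold change of the 5 was 0.44. In the endoplasmic reticulum and microsomal membrane the 6 members divided, with the 3 microsomal transferases higher and the 3 peroxidases Gpx7, Gpx8 and Prdx4 lower. The calls of Gpx7 and Prdx4 were lost in 11 and 9 of 19 alternatives. Both secreted enzymes, Sod3 and Gpx3, were lower. These counts come from few genes and were read from the same fit, and no test compared the locations. That fit called 18.3% of all genes tested higher and 15.6% lower.

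Of 27 other genes of the NRF2 pathway, 8 were higher and 7 lower at 100 µM against 0 µM. Over all genes tested, 18.3% were called higher and 15.6% lower. The higher genes named by smallest p were of carbon metabolism: malic enzyme Me1, which makes NADPH, went from 168 ± 8.60 to 328 ± 11.2 FPKM, and transaldolase Taldo1 (147 ± 1.38 to 243 ± 6.95), transketolase Tkt (62.4 ± 0.904 to 91.5 ± 3.55) and phosphogluconate dehydrogenase Pgd (98.1 ± 0.978 to 138 ± 3.26) belong to the pentose phosphate pathway. The lower ones were epoxide hydrolase Ephx1 (61.4 ± 3.07 to 44.7 ± 0.532), Gclc, the catalytic subunit of glutathione synthesis (22.7 ± 1.29 to 17.5 ± 0.246), heme oxygenase Hmox1 (263 ± 13.9 to 200.3 ± 14.4) and Mafk, an NRF2 partner (12.4 ± 0.459 to 9.59 ± 0.545). Their log2 fold changes ran from -0.45 for Ephx1 to 0.96 for Me1, and all 8 calls held in every alternative. Me1 also serves lipogenesis, and these genes are not specific to NRF2.

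**Figure D4:**
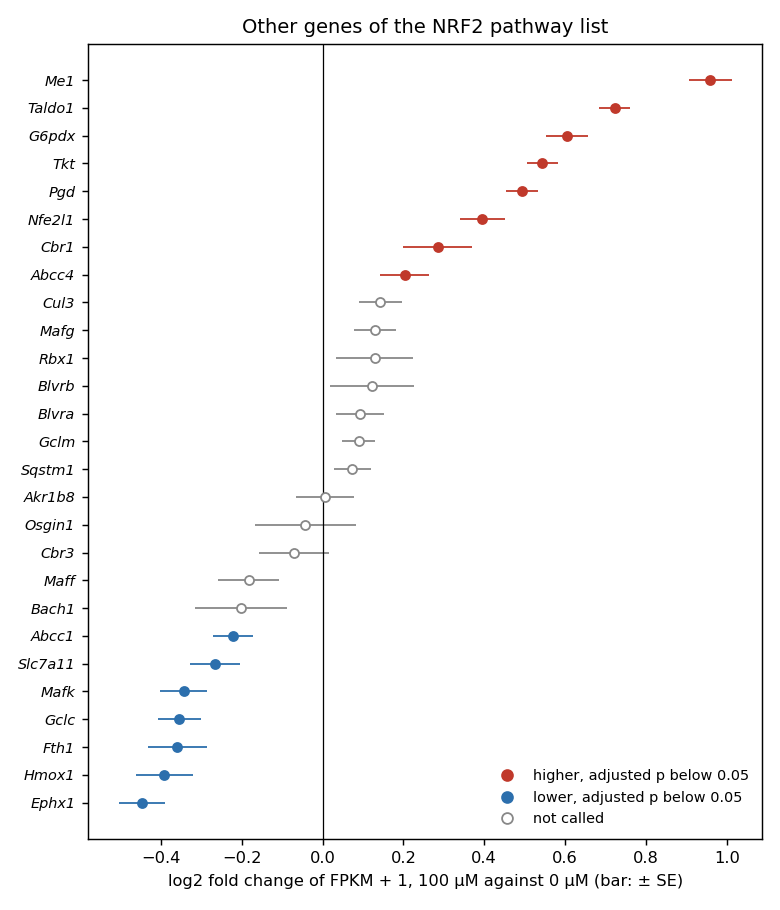
Log2 fold changes of FPKM + 1 at 100 µM against 0 µM, ± SE from limma, for the 27 tested genes of the NRF2 pathway that are not members of the set; filled points passed an adjusted p of 0.05. The list holds 8 higher genes, led by Me1, and 7 lower, led by Ephx1, against 18.3% higher and 15.6% lower of all genes tested.

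Further enzymes of peroxide and thiol metabolism gave 6 higher and 3 lower of 22 tested. Beside this and the lists that follow, the fit called 18.3% of all genes tested higher and 15.6% lower. No list was tested against these shares. Catalase (Cat), the peroxisomal enzyme that breaks down peroxide, rose from 202 ± 6.20 to 265 ± 9.64 FPKM, and Aifm2, which recycles the lipid antioxidant coenzyme Q, from 29.4 ± 0.834 to 52.1 ± 2.13. Park7, a redox-sensing protein, was also higher (log2 fold change 0.23), and Msrb3, a methionine sulfoxide reductase of the endoplasmic reticulum, was lower (-0.36), the opposite of Msra and Msrb1. Txndc5, a disulfide isomerase of the endoplasmic reticulum, fell from 94.1 ± 5.18 to 73.4 ± 2.35 FPKM. Among other transferases and related membrane proteins, 3 of 12 were higher and 4 lower. Gstz1, of tyrosine breakdown, rose from 24.2 ± 1.56 to 45.6 ± 2.77 FPKM, while Gstm4, a mu-class gene like Gstm2 and Gstm5, fell from 6.29 ± 0.103 to 4.64 ± 0.812. Ptges and Ptges2, prostaglandin E synthases, were higher (0.47 and 0.61), and Alox5ap, which serves leukotriene synthesis, and Clic1, a channel protein of the transferase fold, were lower (-0.63 and -0.39). Of 18 genes of metal response and zinc transport, 2 were higher and 4 lower, and the zinc importer Slc39a14 fell from 24.4 ± 0.899 to 15.7 ± 0.878 FPKM. Slc39a6 and Slc30a7, zinc transporters, were lower (-0.54 and -0.29) and Slc30a9 higher (0.25). Selenoprotein genes gave 2 higher and 2 lower of 11, and 8 of the 19 listed were not found by symbol. Pstk and Sepsecs, of selenocysteine synthesis, were higher (0.37 and 0.33), and Selm and Sepn1, selenoproteins of the endoplasmic reticulum, lower (-0.40 and -0.31). The oxidant-producing enzymes gave 2 higher and 3 lower of 11: the NADPH oxidase subunit Cyba fell from 50.9 ± 2.86 to 35.5 ± 2.61 FPKM, with aldehyde oxidase Aox1 higher (0.28). The calls of 7 more genes in these lists did not hold: Txnl1, Nxn, Slc31a1, Slc30a4, Xdh and Rac2 were lost without 100 µM library 2 and Gstt3 without 0 µM library 1, among other libraries (limma adjusted p 0.0501 to 0.122).

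Markers of cell types moved in the same comparison, and their part in the results above was not tested. All 11 tested adipocyte markers were higher at 100 µM than at 0 µM, where 18.3% of all genes tested were called higher and 15.6% lower. Of 8 stromal progenitor markers 6 were lower and none higher (summed FPKM 914 to 993, 813 to 926 and 564 to 626 in the 0, 50 and 100 µM libraries). Of 13 macrophage and myeloid markers 10 were lower (273 to 304, 296 to 301 and 219 to 228 FPKM), and of 11 endothelial markers 9 (193 to 215, 190 to 207 and 163 to 167 FPKM). Smooth muscle markers gave 2 higher and 2 lower of 8 (301 to 343, 304 to 355 and 211 to 230.3 FPKM). The 1 tested mesothelial marker and 1 of 2 Schwann cell markers were lower. Erythroid, lymphocyte and epithelial markers were under the filter, with Hba-a1, Cd3g and Nkg7 among those at 0 in every library.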

How the data were processed

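RNA of 9 libraries was sequenced, 3 per dose. The authors deposited 1 table of FPKM values for 41761 gene rows, per the file headers; 16475 rows were at 0 in every library. The submitters' processing notes name GRCm38 and mm10, whereas the table's identifiers are those of the C57BL/6NJ strain, whose coordinates are printed for genes. For the aligner and counting tool: not given in the sources used here. FPKM times gene length was a whole multiple of 1 value per library for 100% of values (tolerance 0.01 read), so reads could be rebuilt. They ranged from 14019672 to 17094467 per library, and the deposited scaling carried a factor per library.

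The test was limma 3.58.1 (R 4.3.3) on log2 of FPKM plus a pseudocount of 1, for the 12635 genes that reached 1 FPKM in 3 or more libraries. Fold changes on this scale are understated for low genes. All 39 members passed the filter. The model had 1 mean per dose over all 9 libraries, with variance following a trend. Comparisons were two-sided, and a call was a p adjusted by Benjamini-Hochberg over all genes tested of under 0.05. A bare number in parentheses beside an alternative is that alternative's limma adjusted p. The 19 alternatives were 2 pseudocounts, 2 filters, 3 scalings, voom on rebuilt reads, the compared doses alone, a replicate block and each library left out.

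The members and the gene lists were chosen with earlier results of these data known. Members that passed in any comparison, or had the 5 highest or 5 lowest means, are given with every library. List genes are named by smallest p, up to 4 per direction. A few genes that this rule covers are not reported here. No per-sample column was left unused. Promoters are RefSeq windows of 300 bases on GRCm38.p6, from 250 before to 50 after a start.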

Additional observations from a re-analysis of the deposited data

How the results depend on the processing

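No call of a member changed direction in any of the 19 alternatives. At 100 µM against 0 µM, 14 of the 25 calls held in every alternative that tested the gene, 10 higher and 4 lower. At 100 µM against 50 µM 6 of 13 held, and at 50 µM against 0 µM neither of 2. Of 77 results of members that were not called, 18 passed in some alternative. A pseudocount of 5 FPKM shrinks low genes by construction: Mgst2 went to 0.22 and Nqo1 to -0.40 (log2, 100 µM against 0 µM).

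At 50 µM against 0 µM the number of genes called, 100 as reported, was 12 with no filter, 208 with the filter at 5 FPKM, 348 with voom on rebuilt reads and 0 with the 2 doses alone (1837 at unadjusted p under 0.05). Members called, 2 as reported, were 0 with no filter (9 unadjusted), 1 on the TPM scale, 1 after quantile normalization and 0 with the 2 doses alone (11 unadjusted). Leaving out 1 library at a time gave 15 to 24 member calls at 100 µM against 0 µM (15 without 0 µM library 2), 8 to 12 at 100 µM against 50 µM (8 without 100 µM library 2) and 0 to 2 at 50 µM against 0 µM. For all genes the ranges were 3414 to 4322, 2277 to 3033 and 0 to 112, the last 0 without 0 µM library 1 or 2 or 50 µM library 2 and 1 without 0 µM library 3. The cause was not tested.

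Replicate numbers did not pair the libraries. For this, each gene's mean at the dose was first subtracted from its log2 values. These deviations correlated at -0.0941 to 0.0412 between same-numbered libraries of different doses, over 9 pairs. By the same measure, 1 of 9 libraries correlated best with its own number. With a replicate block, limma called 19, 9 and 0 members (100 against 0, 100 against 50 and 50 against 0 µM; 8 unadjusted in the last) and 3808, 2646 and 0 genes (1603 unadjusted in the last).

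All genes at 100 µM against 0 µM were split 2314 higher and 1965 lower as reported, 1630 and 2633 on the TPM scale and 1731 and 2658 with the factor removed; no scaling moved the median log2 fold change of all genes by over 0.1. Groups of 3 libraries are too small to test for outlying values, and some genes under 10 FPKM rest on few reads, as Gsta4 with 42 to 85.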
